A study of Mus musculus with 4 samples.

Results

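The 10 neuronal genes described here were followed through the cells of mouse brain tumors driven by MYCN, out of 21861 measured features. They were chosen as a fixed list of names: Stmn2, Stmn3, Tubb3, Dcx, Gap43, Ina, Nefl, Nefm, Syp and Snap25. The question was how far cells that resemble neuroblasts (NB-like cells) carry RNA of neurons, and in which mice. It was also asked whether other tumor and brain cells carry it.

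Brain tumor tissue of 4 mice was measured by single-cell RNA sequencing, 2 mice at P43 (mouse 4 and mouse 5) and 2 at P70 (mouse 6 and mouse 7), P being the postnatal day. All 4 carried the genotype hGFAP-cre::TP53Fl/Fl::lsl-MYCN, so that Cre, driven by the human GFAP promoter in radial glia and their progeny, deleted Trp53 and switched on human MYCN together with luciferase. There was no tumor-free control. Each library is 1 animal, and the ages differ by 2 animals each. RNA of human MYCN or luciferase is called the reporter below and marks tumor cells.

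After filtering, 10975 cells remained, with a median of 1419 to 10449 unique molecular identifiers (UMIs, counted RNA molecules) per cell depending on the mouse. The 10 genes were kept out of the clustering and out of the marker lists. Of the cells, 562 were NB-like (20, 6, 30 and 506 in mice 4, 5, 6 and 7) and 4141 resembled immature oligodendrocytes (OL-like). A further 255 were astrocyte-like (AC-like), 140 were oligodendrocyte precursors (OPC) and 112 mature oligodendrocytes (MOL). The remaining classes were vessel and immune cells, and 1156 cells stayed unassigned. Each class is a cluster named by its marker genes, so every name stands for resemblance. Sox11, a factor of young neurons that helped to name the NB-like cells, stood there at 424, 565, 982 and 988 CPM in mice 4, 5, 6 and 7. Only 15 cell barcodes, counted over all pairs of libraries, occurred in both libraries of a pair, of 11834 in all. In vessel and immune cells, 4 Y-linked genes summed to 223 CPM (UMIs of a gene for each 1000000 UMIs of the same cells) in mouse 4, labelled female, and to 0.642 CPM in mouse 5, labelled male. The libraries of mice 4 and 5 therefore go against their sex labels, and both are used only as P43. Mouse 6, labelled male, had 187 CPM and mouse 7, labelled female, 0 CPM.

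A newborn neuron first builds its microtubules and growth cone. Stathmins, doublecortin and the neuronal tubulin appear while the cell still migrates, whereas neurofilaments fill the axon later and the vesicle release machinery is built when synapses form. In the adult olfactory bulb and forebrain, neuroblasts that carry these early genes arise throughout life, most of them destined to become inhibitory interneurons.

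Summed over the NB-like cells of a mouse, the microtubule and growth cone genes were far above their OL-like level in all 4 mice. At P43 these sums rest on few cells: in mouse 4 Stmn2, Dcx and Gap43 each had a UMI in 3 of 20 NB-like cells and 10 of the 20 held no member, and in mouse 5 each of the 3 genes had a UMI in 3 of 6. Clustered without integration of the libraries, mice 4 and 5 held 0 and 1 NB-like cells. The set also changed with other settings. Mice 4 and 5 held 8 and 7 NB-like cells with a limit of 60000 UMIs per cell. They held 49 and 7 with a mitochondrial share under 10%, and 79 and 9 with the members and related genes among the variable genes. Stmn2, a stathmin that loosens microtubules in growth cones (ENSMUSG00000027500, GRCm38 chromosome 3, 8509360 to 8561606, plus strand), stood at 505, 608, 675 and 1088 CPM in the NB-like cells of mice 4, 5, 6 and 7. In OL-like cells it stood at 2.49, 0.378, 0.701 and 12.9 CPM. The lowest NB-like value thus lay far above the highest OL-like value, and with 10 CPM added to both sides NB-like cells held 41.3, 59.6, 64.0 and 48.0 times the OL-like level. Stmn3, its close relative (ENSMUSG00000027581, chromosome 2, 181306459 to 181314500, minus strand), followed at 375, 565, 311 and 406 CPM against 3.78 to 8.80 CPM in OL-like cells. Dcx, the doublecortin that bundles microtubules in migrating neuroblasts (ENSMUSG00000031285, chromosome X, 143855842 to 143933311, minus strand), reached 147, 456, 119 and 118 CPM and no more than 3.25 CPM in OL-like cells. Gap43, a membrane protein of the growth cone (ENSMUSG00000047261, chromosome 16, 42248442 to 42340651, minus strand), reached 245, 239, 278 and 612 CPM against 1.13 to 12.8 CPM. Mouse 5 was the highest for Dcx and Stmn3, and mouse 7 for Stmn2 and Gap43.

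**Figure D1:**
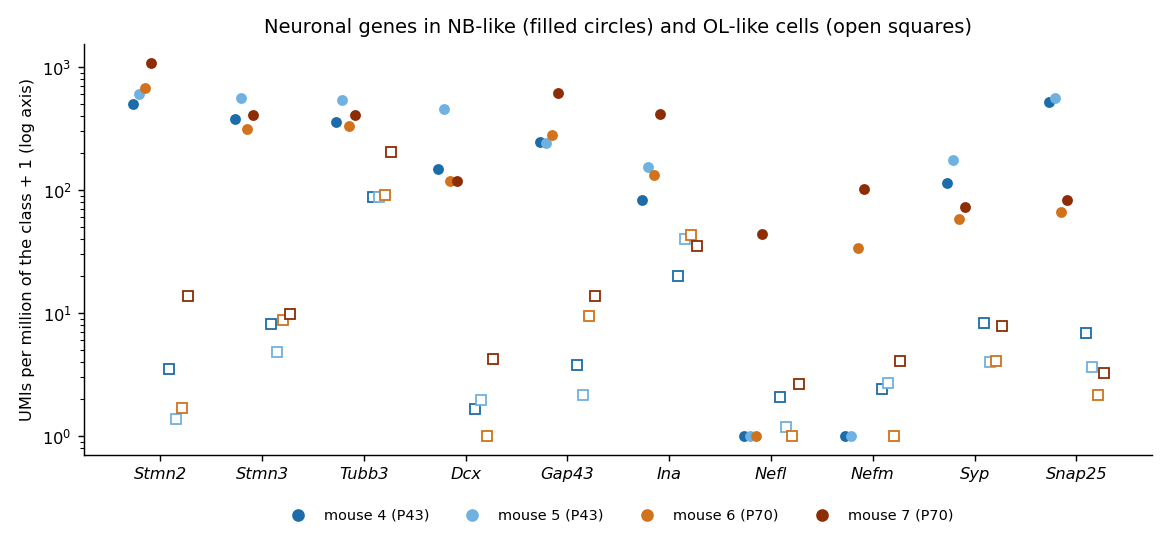
Level of the 10 genes in NB-like cells (filled circles) and OL-like cells (open squares), 1 point per mouse, as CPM plus 1 on a log axis, where 1 stands for no UMI. Circles lie above squares for 8 of the 10 genes in each mouse, while Nefl and Nefm lie at the bottom in P43 NB-like cells, and Tubb3 and Ina have the highest squares.

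Tubb3 and Ina were shared with OL-like cells, and the neurofilaments were scarce. Tubb3, the beta-tubulin of neurons (ENSMUSG00000062380, chromosome 8, 123411424 to 123422015, plus strand), had 359, 543, 332 and 405 CPM in NB-like cells but also 87.4, 87.2, 89.7 and 203 CPM in OL-like cells. Ina, alpha-internexin, the filament protein that precedes the neurofilaments (ENSMUSG00000034336, chromosome 19, 47014698 to 47025327, plus strand), was at 81.5, 152, 131 and 412 CPM against 19.1, 38.8, 42.5 and 34.1 CPM. NB-like cells were above OL-like cells in each mouse for both genes, but by 1.95 to 5.69 times for Tubb3 and 2.68 to 9.57 times for Ina. Nefl and Nefm, the light and medium neurofilament chains, overlap each other on opposite strands of chromosome 14 (Nefl, ENSMUSG00000022055, 68083863 to 68089095; Nefm, ENSMUSG00000022054, 68082590 to 68124846). Nefl had no UMI in the NB-like cells of mice 4, 5 and 6 and 43.1 CPM in mouse 7. Nefm had none in mice 4 and 5, and 32.7 and 101 CPM in mice 6 and 7. The NB-like cells of mice 4 and 5 held 61332 and 46029 UMIs in all, so that a count of 0 still allows 48.9 and 65.2 CPM, and neurofilament RNA at the level of mouse 6 was not detectable at P43.

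Counted by a limit of 4 times the OL-like level in each of the 4 mice, 6 of the 10 genes passed: Stmn2, Stmn3, Dcx, Gap43, Syp and Snap25. Over all 17187 features with a UMI in either class, 0.239% did. In both P70 mice 7 of the 10 passed, Nefm being added, beside 0.559% of all features. The classes were drawn from the same cells, so these counts are a description without a test. Leaving out any mouse left 6 genes, whereas 3 passed with 50 CPM added in place of 10 and 2 passed without integration of the libraries.

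Promoter sequence was at hand in RefSeq (GRCm38.p6) for 5 of the 10 genes: Stmn3, Tubb3, Dcx, Ina and Syp. The 250 bases before each start were searched on both strands for CAGATG and CAGCTG, which are forms of the E-box that basic helix-loop-helix factors such as Neurod1 bind. Stmn3 is shown as a member at least 18.1 times the OL-like level in NB-like cells of each mouse, and Ina as one that OL-like cells shared. Stmn3 lies on the minus strand and its window is chr2:181314501-181314750. The window of Ina, on the plus strand, is chr19:47014431-47014680. Capitals mark the E-box.
Stmn3: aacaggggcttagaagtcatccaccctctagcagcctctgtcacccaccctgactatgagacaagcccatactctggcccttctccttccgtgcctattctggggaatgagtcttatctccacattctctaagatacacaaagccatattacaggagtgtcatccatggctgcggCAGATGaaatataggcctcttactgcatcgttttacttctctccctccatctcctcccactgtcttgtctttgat
Ina: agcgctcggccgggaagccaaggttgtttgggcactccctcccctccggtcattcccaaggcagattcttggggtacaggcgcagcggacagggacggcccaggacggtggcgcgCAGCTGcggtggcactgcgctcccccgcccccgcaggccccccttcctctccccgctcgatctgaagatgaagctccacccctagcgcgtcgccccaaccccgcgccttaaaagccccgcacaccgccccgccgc
Stmn3 held 1 CAGATG and Ina 1 CAGCTG, while the windows of Tubb3, Dcx (both of its starts) and Syp held neither. Of 32851 such windows over all genes, 14.4% held CAGATG, 4271 windows held CAGCTG and 25.5% held either. The share of G and C was 48.8% G and C for Stmn3 and 70.8% for Ina, against a median of 52.4% over all windows.

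Synapse genes were lower in the NB-like cells of P70, and 1 of them passed the test. Snap25, a plasma membrane protein of the vesicle fusion complex (ENSMUSG00000027273, chromosome 2, 136713453 to 136782428, plus strand), stood at 522 and 565 CPM in the NB-like cells of mice 4 and 5 and at 65.5 and 81.7 CPM in those of mice 6 and 7. The ages did not overlap. With 2 mice per age this is weak evidence, and the share of all features without overlap was not computed. From P43 to P70 Snap25 changed by a log2 fold of -2.81 ± 0.34 (SE, 2 mice per age), with an adjusted p of 0.00213 in edgeR's quasi-likelihood test with Benjamini-Hochberg adjustment. Syp, synaptophysin, a protein of the synaptic vesicle membrane (ENSMUSG00000031144, chromosome X, 7638471 to 7653256, plus strand), stood at 114 and 174 CPM at P43 and at 57.3 and 71.6 CPM at P70. Its ages did not overlap either, but its log2 fold of -1.05 ± 0.46 did not pass (adjusted p = 0.224, edgeR). Of the 8 members that passed the filter on low counts, Snap25 alone was called, beside 6.38% of 3071 genes called in either direction, 5.11% lower and 1.27% higher. Without mouse 5, 6 or 7 the called genes numbered 89, 115 and 108 instead of 196, and Snap25 was called each time a mouse was left out (adjusted p of 0.000163 to 0.00825, edgeR). Without integration the test could not be fitted, since P43 then held 0 and 1 NB-like cells.

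The other members did not pass the test of age in NB-like cells. The log2 folds in edgeR were 0.72 ± 0.33 for Stmn2, 0.94 ± 0.44 for Gap43, 1.36 ± 0.64 for Ina and -1.26 ± 0.51 for Dcx, with adjusted p of 0.246, 0.245, 0.251 and 0.194. For Stmn3 and Tubb3 they were -0.32 ± 0.33 and -0.22 ± 0.33, with adjusted p of 0.641 and 0.768. The low UMI counts limit these values, since Ina rested on 5 and 7 UMIs at P43. Nefl and Nefm were too low at P43 to be tested. Without the filter on low counts Gap43 and Ina were called higher at P70 (log2 folds of 1.39 and 1.81, adjusted p of 0.0294 and 0.0107, edgeR), and so was Nefm, whose fold against a P43 level of 0 cannot be given. Ina was also called without mouse 6 (log2 fold of 1.92, adjusted p = 0.0157, edgeR), a fit in which P70 is mouse 7 alone and is assumed to vary like the P43 mice. Simulated counts with the means and spread of these libraries gave back 66.5% of genes changed 4-fold, so the design could miss changes of this size.

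The Snap25 molecules of P43 came from NB-like cells without a reporter UMI. In mouse 4, 9 of the 20 NB-like cells had no reporter UMI, and 5 of these 9 held all 32 Snap25 UMIs. In mouse 5 the 2 cells without a reporter UMI held all 26. The 11 and 4 NB-like cells with a reporter UMI held no UMI of Snap25 or Syp, which allows up to 80.3 CPM in mouse 4 and 113 CPM in mouse 5. These limits lie near the P70 levels, 80.3 CPM in the 24 cells of mouse 6 and 79.5 CPM in the 495 cells of mouse 7 that had a reporter UMI. In a fit of reporter-bearing cells alone Snap25 was not called (adjusted p = 0.232, edgeR), while Gap43 was called higher at P70 (log2 fold of 2.40, adjusted p = 0.0238, edgeR). Mouse 5 was left out of that fit because it had fewer than 5 such cells, so P43 was mouse 4 alone, with 4 Gap43 UMIs in 1 of 11 cells, and was assumed to vary like the P70 mice. The call was also lost with a limit of 60000 UMIs per cell (adjusted p = 0.0673, edgeR) and with a mitochondrial share under 10% (adjusted p = 0.06, edgeR).

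Stmn2 and Tubb3 were found in P43 cells with a reporter UMI. Stmn2 was at 428 and 1055 CPM in the reporter-bearing NB-like cells of mice 4 and 5, at 829 CPM in mouse 6 and at 1091 CPM in mouse 7. The value of mouse 4 rests on 16 UMIs in 1 of 11 cells. In mouse 5 all 28 Stmn2 UMIs lay in cells with a reporter UMI, of which 3 of 4 held one. Tubb3 had 13 UMIs in 4 of the 11 cells of mouse 4 and 18 UMIs in 2 of the 4 cells of mouse 5. In mouse 7 the 11 cells without a reporter UMI had Snap25 at 933 CPM and Gad1 at 1620 CPM but no Neurod1 UMI. They were shallow, with 20367 UMIs in all. In mouse 6 the 6 cells without a reporter UMI held no UMI of Stmn2, Tubb3, Snap25 or Neurod1 among 45199. When each cell was first thinned to 2000 UMIs, mouse 7 alone had at least 10 cells on each side. There 463 cells kept a reporter UMI after thinning and 30 did not. Most of these 30 held one before thinning, since only 11 NB-like cells of mouse 7 had none. In full counts, the log2 folds of the 463 against the 30 were -0.13 to -0.47 for 9 of the 10 genes and -0.90 for Snap25. Split without thinning, the direction turned for Stmn2, at 1091 CPM with and 196 CPM without a reporter UMI, and for Stmn3, Tubb3, Gap43 and Ina. Gap43 stood at 613 against 147 CPM and Ina at 413 against 147 CPM. Nefm stood at 102 CPM against no UMI in the 11 cells, which allows 147 CPM. Dcx, Nefl, Syp and Snap25 stayed lower in cells with a reporter UMI. The fold of the members together was 0.14 instead of -0.25 (log2).

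**Figure D2:**
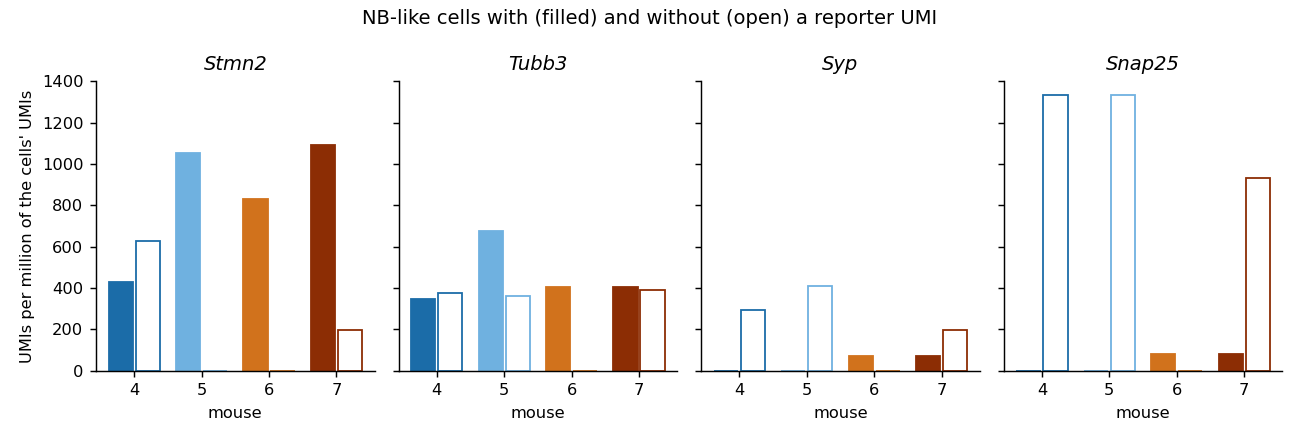
Stmn2, Tubb3, Syp and Snap25 in NB-like cells with (filled bars) and without (open bars) a reporter UMI, in CPM of those cells, by mouse (4 and 5 at P43, 6 and 7 at P70). Syp and Snap25 have no filled bar in mice 4 and 5, and an open Snap25 bar of 1335 CPM in both.

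The NB-like cells of the ages also differed in the values of reporter and lineage RNA. At P43 the reporter stood at 522 and 413 CPM in NB-like cells, against 2488 and 2603 CPM at P70 and 9.77 to 59.7 CPM in myeloid cells. The limit of 500 CPM that marked tumor clusters was met by the NB-like cluster over all mice, at 2572 CPM. Its cells of mouse 5 alone lay below that limit. Gad1, an enzyme of inhibitory neurons, stood at 342 and 782 CPM at P43, 0 CPM in mouse 6 and 7.61 CPM in mouse 7, while Neurod1, a factor of excitatory neuroblasts, stood at 32.6, 0, 602 and 677 CPM. NB-like cells were therefore also split by at least 2 UMIs of an inhibitory list (Dlx1, Dlx2, Dlx5, Gad1, Gad2) or of an excitatory list (Neurod1, Neurod2, Neurod6, Nhlh1, Nhlh2, Tbr1). Cells with inhibitory RNA alone, 4, 4 and 9 in mice 4, 5 and 7, carried Snap25 at 1621, 599 and 1311 CPM and the reporter at 125, 207 and 123 CPM. Cells with excitatory RNA alone, 3, 19 and 412 in mice 4, 6 and 7, carried Snap25 at 180, 89.9 and 80.5 CPM and the reporter at 431, 3258 and 2493 CPM. A further 69 cells of mouse 7 held RNA of both lists, with Snap25 at 62.1 CPM and the reporter at 3173 CPM. High Snap25 with low reporter was thus seen in cells with inhibitory RNA alone. The 69 cells were deeper, with a median of 19566 UMIs against 3316 in the 9 cells of mouse 7 with inhibitory RNA alone. Over all NB-like cells of mouse 7 Dlx5 had 262 UMIs, and no other gene of the inhibitory list had more than 60. Gad1 lay in 4 of the 495 reporter-bearing cells of mouse 7. Which inhibitory genes the 69 cells held was not examined. Over the 6 sets with inhibitory or excitatory RNA alone, Stmn3 ranged from 323 to 811 CPM and Tubb3 from 328 to 624 CPM. Stmn2 and Gap43 varied more, Stmn2 from 81.9 CPM in the inhibitory to 1145 CPM in the excitatory set of mouse 7, and Gap43 from 123 to 609 CPM in the same sets. Age and kind of NB-like cell cannot be told apart in these 4 mice.

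Synapse RNA was also set against that of the early cytoskeleton within NB-like cells. The UMIs of Syp and Snap25 over those of Stmn2, Stmn3, Tubb3 and Dcx gave 0.459 and 0.34 at P43 and 0.0855 and 0.0760 at P70. The mean fell by 0.319 between ages, which an exact two-sided permutation test puts at p = 0.333, the smallest value that 2 mice against 2 allow. In reporter-bearing cells alone the ratio was 0 in both P43 mice, from 11 and 4 cells with 42 and 74 cytoskeleton UMIs. At P70 it was 0.0855 and 0.0746. A count of 0 among so few cells and UMIs leaves the P43 ratio open, so the order of the ages is not settled there. In OL-like cells the ratio was 0.135, 0.0615, 0.0429 and 0.0396, below the NB-like ratio of the same mouse each time, with Tubb3 making up most of the denominator. In OPC it was 0.107 in mouse 5, below the NB-like ratio, and 0.137 in mouse 7, above it. AC-like cells of mice 6 and 7 also lay above NB-like cells, at 0.214 and 0.2, from 3 and 19 synapse UMIs. As a reference, a cluster of 42 cells of mouse 4 (and 1 of mouse 5) that separated at a clustering resolution of 1.0 and was led by neuronal genes (Scg2, Syt1, Ntng1, Snhg11) gave 0.923 in mouse 4. The neuron-like cells of mouse 4 had Snap25 at 999 CPM, Syp at 304 CPM, Stmn3 at 847 CPM and Nefl at 174 CPM, but Dcx at 21.7 CPM from 1 UMI and the reporter at 43.4 CPM. They also held Mbp, a myelin gene, at 2498 CPM. Rbfox3, a marker of mature neurons, had no UMI in them, with a 95% counting interval up to 80.1 CPM. In NB-like cells Rbfox3 stood at 97.8, 43.5, 135 and 103 CPM in mice 4, 5, 6 and 7, from 6 and 2 UMIs in mice 4 and 5. OL-like cells had 0.234 to 3.86 CPM. Within the classes used above the neuron-like cells counted as OL-like, and without them Snap25 in the OL-like cells of mouse 4 was 0.978 instead of 5.95 CPM.

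**Figure D3:**
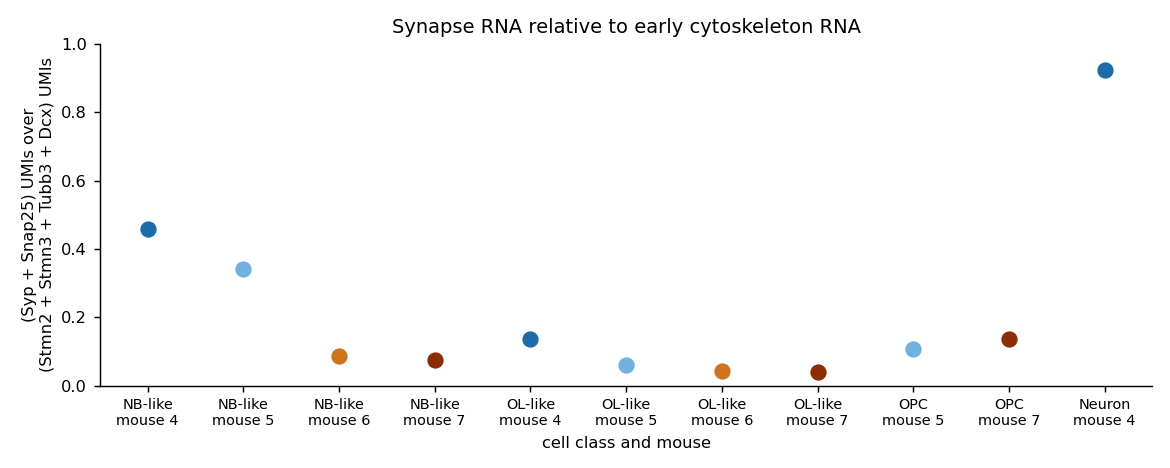
UMIs of Syp and Snap25 divided by UMIs of Stmn2, Stmn3, Tubb3 and Dcx, by cell class and mouse, for NB-like cells, OL-like cells, OPC with at least 20 cells and the neuron-like cells of mouse 4. P70 NB-like cells lie at 0.0855 and 0.0760, below P43 NB-like cells at 0.459 and 0.34. OL-like cells lie at 0.0396 to 0.135, OPC of mice 5 and 7 at 0.107 and 0.137, and neuron-like cells highest at 0.923.

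Cell by cell, most NB-like cells of mouse 7 carried several of the genes. After thinning each cell to 2000 UMIs, 493 of its 506 NB-like cells remained, and 14, 2 and 8 NB-like cells of mice 4, 5 and 6 were too shallow. Stmn2 was found in 84.6% of them (95% exact binomial interval 81.1 to 87.7), Gap43 in 64.5%, Tubb3 in 54.6%, Stmn3 in 54.4%, Ina in 52.7% and Dcx in 22.9% (19.3 to 26.9). Snap25 was found in 17.2% (14.0 to 20.9), Nefm in 15.4%, Syp in 12.2% and Nefl in 6.29% (4.31 to 8.81). Myeloid cells, which should lack these genes, gave the background: in mouse 7, 9 of the 10 genes had no UMI in 89 thinned cells, which allows 3.37%, and Syp had 1.12%. Among the 760 thinned myeloid cells of mouse 6 the highest share was 0.395%, for Tubb3. Without thinning the shares in NB-like cells of mouse 7 were 95.5% for Stmn2, 69.4% for Dcx and 62.1% for Snap25, with no UMI of these genes in 145 myeloid cells. The median depth before thinning was 15257 UMIs in NB-like and 2321 in myeloid cells of mouse 7. All intervals cover counting error only.

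The number of the 10 genes found per thinned NB-like cell averaged 3.0, 3.5, 2.45 and 3.85 in mice 4, 5, 6 and 7, from 6, 4, 22 and 493 cells. In OL-like cells it averaged 0.225, 0.168, 0.296 and 0.393. At least 3 genes were found in 83.6% of the NB-like cells of mouse 7 and in 1.09% of its OL-like cells. Of the 472 NB-like cells of mouse 7 with Stmn2, Stmn3, Tubb3 or Dcx, 27.1% also held Syp or Snap25, against 27.0% of all 493 cells. A synapse gene without any of the 4 was found in 5 cells. Nearly all cells held at least 1 of the 4, so the few without cannot show whether synapse RNA keeps to cells with cytoskeleton RNA.

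Cells with cell cycle RNA carried the genes as well. A cell was called cycling if at least 2 of 8 cell cycle genes were found after thinning, which 65.5% (61.1 to 69.7) of the NB-like cells of mouse 7 met, and 14 of 22 in mouse 6. In mouse 7 the 323 cycling cells held Stmn2 at 968 CPM against 1385 CPM in the 170 others, Tubb3 at 345 against 552 CPM and Dcx at 103 against 155 CPM. Gap43 was nearly level, at 605 against 633 CPM, and so were Nefl (42.9 against 43.5 CPM) and Syp (72.7 against 69.1 CPM). In mouse 6 Stmn2 was at 633 against 747 CPM and Tubb3 at 247 against 441 CPM. There the 6 NB-like cells without a reporter UMI had Mki67, a gene of the cell cycle list, at 929 CPM, in 4 cells. They held no UMI of Stmn2, Stmn3, Tubb3, Dcx or Gap43, and their part in the lower cycling values of mouse 6 was not tested. In both P70 mice 6 of the 10 genes (Stmn2, Stmn3, Tubb3, Dcx, Gap43 and Ina) were lower in cycling cells, as were 28% of all features. A single mouse had at least 10 cells on each side, so this was not tested. Under other definitions of cycling 2 mice could be used. With 3 of the 8 genes required, Stmn2 alone among the members was called lower (log2 fold of -1.08 ± 0.24, adjusted p = 0.00139, edgeR), beside 7 of 9547 genes called lower and 96 called higher. With thinning to 1000 UMIs no member was called, beside 2 of 9696 genes called lower and 51 called higher.

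**Figure D4:**
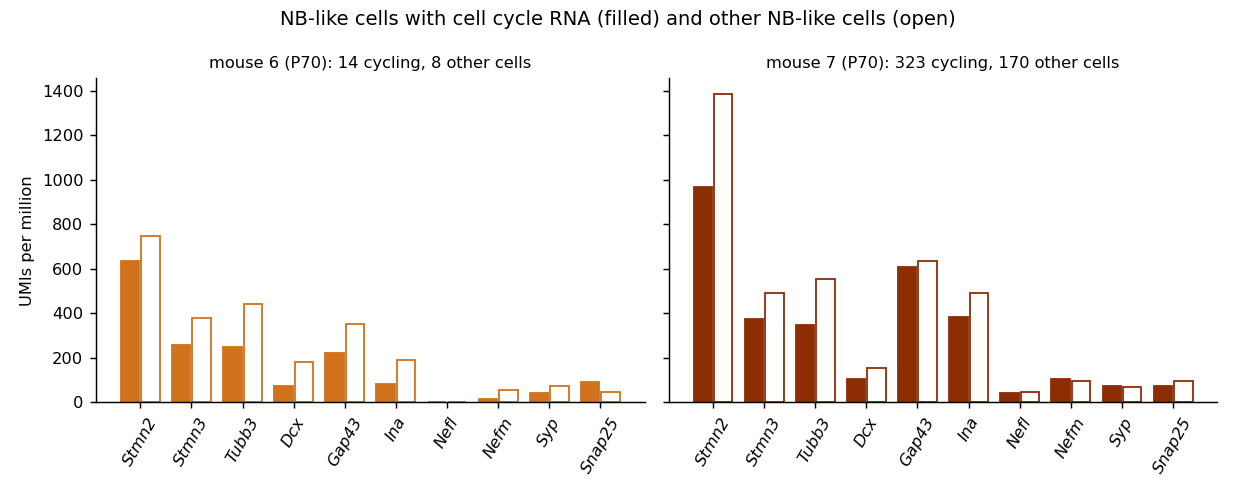
The 10 genes in cycling (filled bars) and other (open bars) NB-like cells of mouse 6 and mouse 7, in CPM of those cells. Stmn2, Stmn3, Tubb3, Dcx, Gap43 and Ina have the lower bar in cycling cells of both mice.

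Between cycling and other OL-like cells 1 member was called, in a test that called 19.2% of all genes. Ina was lower in cycling OL-like cells of each mouse, with 15.6, 31.1, 27.6 and 27.0 CPM in cycling cells of mice 4, 5, 6 and 7 and 22.1, 43.5, 55.4 and 39.5 CPM in the others. With mouse as a block the log2 fold was -0.60 ± 0.11 (SE, 4 mice), with an adjusted p of 0.0042 in edgeR, and it was called under each of the 14 alternatives. Tubb3 did not pass, with a log2 fold of -0.15 ± 0.10 and an adjusted p of 0.359 (edgeR). Stmn2 (0.87 ± 0.31, adjusted p = 0.0736) and Gap43 (0.63 ± 0.25, adjusted p = 0.108) did not pass in edgeR either, at levels of at most 18.0 CPM. Thus 1 of 8 tested members was called, lower, beside 19.2% of 11162 genes called in either direction, 9.59% lower and 9.61% higher. Without mouse 4 the called genes numbered 1378 instead of 2143. Stmn2 was called higher in 6 of 13 alternatives and Gap43 in 2 of 14, and Tubb3 was called lower in 1 of 14, without integration (adjusted p = 0.0315, edgeR).

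Age left no called change in OL-like cells. None of 8 tested members passed, as none of 11665 genes did in edgeR (0%), although 769 genes had an unadjusted p under 0.05 and DESeq2 called 110 genes, none of them a member. The member with the lowest p was Gap43, at 2.81 and 1.13 CPM at P43 and 8.41 and 12.8 CPM at P70, a log2 fold of 2.33 ± 0.55 (adjusted p = 0.617, edgeR). Tubb3 was at 203 CPM in mouse 7 and at 87.2 to 89.7 CPM in the other mice, so that its mean of 117 ± 57.3 CPM (SD, n = 4) was set by mouse 7. Within mouse 7, Tubb3 ranged from 157 to 359 CPM over the 4 OL-like clusters and was highest in the one led by myelin genes (Mal, Mog, Opalin). At a resolution of 1.0 the signal gathered in 1 cluster of 196 cells, 165 of them of mouse 7. There Tubb3 reached 773 CPM in mouse 7, against 100 to 160 CPM in the other 4 OL-like clusters of that mouse. These cells also held Cntn2, an adhesion protein of axons and myelin, at 516 CPM, Ppp1r17 at 506 CPM, Neurod2 at 297 CPM and the oligodendrocyte factor Sox10 at 181 CPM. Their Stmn2, Dcx and Snap25 were at 25.2, 18.7 and 7.49 CPM, far under the NB-like levels.

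Outside the tumor classes, OPC came closest. In the OPC of mice 5 and 7, Stmn3 was at 381 and 430 CPM, Gap43 at 245 and 433 CPM, Ina at 129 and 101 CPM and Dcx at 93.5 and 91.8 CPM, where Dcx lay below the lowest NB-like value and the other 3 within the NB-like range. Stmn2 had no UMI in mouse 5, which allows 21.6 CPM, and 4.83 CPM in mouse 7. Stmn2 thus set NB-like cells and OPC apart, with a UMI in 417 of 493 thinned NB-like cells and 1 of 96 thinned OPC of mouse 7. Snap25 in OPC was 43.2 and 55.6 CPM and Syp 14.4 and 29.0 CPM, and the reporter stood at 266 and 256 CPM.

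Gap43 and Tubb3 reached some of the other classes. AC-like cells had Gap43 at 408 CPM in mouse 6, above its NB-like cells at 278 CPM, but at 64.4 CPM in mouse 7, and Tubb3 at 40.4 and 58.5 CPM, with Stmn2 and Snap25 at no more than 6.74 CPM. MOL had Tubb3 at 26.7 to 237 CPM over 3 mice and no UMI of Stmn2, Nefl, Nefm or Snap25. Endothelial cells (EC) held Stmn2 at 15.6 ± 14.2 CPM (SD, n = 4), with 0 CPM in the lowest mouse. In myeloid cells no member averaged over 2.28 CPM, and Snap25, Nefl and Nefm had no UMI. By mean level over mice with at least 20 cells, Stmn2 was ordered as NB-like, EC, OL-like, AC-like, lymphoid and OPC, and the ranges below NB-like overlapped. For Stmn3 the order was NB-like and OPC, whose ranges overlapped, then MOL and OL-like. For Tubb3 it was NB-like, OL-like, MOL, OPC and AC-like. There NB-like cells lay above OL-like cells, AC-like cells lay below OPC, and the other neighbours overlapped. Dcx, Syp and Snap25 were highest in NB-like cells and next in OPC, with no overlap, whereas for Gap43, Ina and Nefm the ranges of NB-like cells and OPC overlapped. Nefm had the higher mean in OPC, 48.1 CPM (38.7 to 57.5 CPM, n = 2) against 33.5 CPM in NB-like cells (0 to 101 CPM, n = 4). Nefl averaged 9.67 CPM in OPC and 10.8 CPM in NB-like cells.

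**Figure D5:**
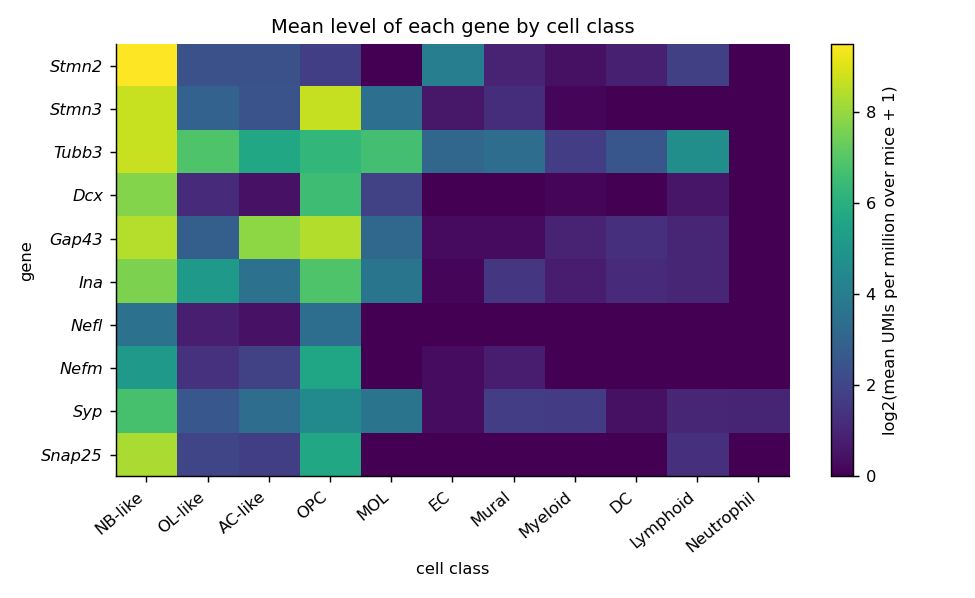
Mean level of each gene (rows) in each cell class (columns), as log2 of the mean CPM over mice plus 1. NB-like cells are the brightest column for most genes, OPC share Stmn3, Gap43, Dcx and Ina but not Stmn2, and vessel and immune classes are dark.

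Other genes of the same machinery, taken from lists of 28 cytoskeleton and 30 synapse genes, were measured beside the members. The cytoskeleton genes with the highest mean in NB-like cells were Stmn1 (2458 CPM), the alpha-tubulin Tuba1a (1820 CPM) and Map1b (1262 CPM), and the highest synapse genes included the calcium sensor Syt1 (361 CPM, set by P43 with 652 and 782 CPM against 0 and 9.26 CPM at P70) and the glutamate receptor subunit Gria2 (309 CPM). Passing 4 times the OL-like level in each mouse were 5 of the 28 cytoskeleton genes (Crmp1, Basp1, Tagln3, Nsg2, Rtn1) and 5 of the 30 synapse genes, among them Syt4, Rab3c, Sncb and Gria2. Over all 17187 features 0.239% passed.

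Between ages in NB-like cells, 6 of 20 tested synapse genes were called lower at P70 in edgeR and none higher. Over all 3071 genes, 5.11% were called lower and 1.27% higher. Syt1 had 652 and 782 CPM at P43 and 0 and 9.26 CPM at P70, and its log2 fold was -6.44 ± 0.52 (adjusted p = 0.000807). Synpr and Sv2a, whose proteins sit in synaptic vesicles, had log2 folds of -4.70 and -3.77. The median over the tested synapse genes was -1.19, against 0.07 over all 3071 genes and -0.27 over the 8 members. Of 24 tested cytoskeleton genes, the kinesin Kif5c was called higher (log2 fold of 2.03) and Stmn4 lower (-1.74), with a median of -0.07. As with Snap25, 39 of the 40 Syt1 UMIs of mouse 4 and 32 of the 36 of mouse 5 lay in NB-like cells without a reporter UMI.

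In cycling against other OL-like cells, 5 of 21 tested synapse genes (Syt1, Syt11, Rab3a, Synpr, Sv2a) were called lower in edgeR and none higher. Over all 11162 genes, 9.59% were called lower and 9.61% higher. The median log2 fold of the synapse genes was -0.30, against -0.03 over all genes. Of 26 cytoskeleton genes, 2 (Stmn1 and Tubb2b) were called higher and 4 (Elavl3, Mapt, Stmn4 and Cntn2) lower, near the 19.2% of all genes called in either direction. No gene of either list was called for age in OL-like cells.

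The genes most like the members were sought over 36 sums, each of a class in a mouse with at least 20 cells, among 9753 genes that reached 50 CPM in a sum. By Pearson's r of log2(CPM + 10) with the mean of the members, the closest were Gdap1 (0.97), the neuronal transcription factor Myt1l (0.96), Tmem35a (0.96), Srrm3 (0.96) and the cannabinoid receptor Cnr1 (0.96). Chgb, Frmd3, Sult4a1, Frrs1l and Nell2 followed at 0.93 to 0.94. Among the members themselves r with their mean ran from 0.64 for Nefl to 0.96 for Stmn3. Sums of a mouse share a library, and these values are a description.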

How the data were processed

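Single-cell suspensions were sequenced as 10x 3' libraries, and the deposited files hold raw UMI counts per feature and cell, which, per the submitters' processing notes and methods, the authors made with Cell Ranger 6.0.2 on mm10 with luciferase and human MYCN sequences added. The cells were cryopreserved and sorted as alive before loading. The libraries held 13106786 to 40621958 UMIs. The filter asked for 200 genes or more, a mitochondrial share below 25% and no more than 40000 UMIs per cell, and the 4 libraries were integrated by anchors in Seurat 5.3.0 (2000 variable genes, 30 components, resolution 0.5) into 18 clusters. No doublet caller was run, and the UMI limit was the one guard against doublets. The members and 2 lists of related genes were kept out of the variable genes and marker lists. Clusters were named after they were seen: at least 500 CPM reporter, over all cells of a cluster, marked it as tumor, and at least 3 markers raised 2-fold gave the name. Mixed or shallow clusters stayed unassigned. Members, lists and tests were chosen with earlier results of these data known.

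UMIs were summed per class and mouse and given as CPM, so deep cells weigh more. The sums were tested with edgeR 4.0.16 (TMM, filterByExpr, quasi-likelihood, Benjamini-Hochberg, threshold 0.05), with at least 20 OL-like or 5 NB-like cells per mouse. DESeq2 1.42.0 was an alternative. Checked on simulated counts with 200 genes changed 4-fold, edgeR gave back 56.5% for age in OL-like cells, 66.5% for age in NB-like cells and 98% for cycling OL-like cells, with 8, 7 and 14 false calls. Shares were taken after thinning each cell to 2000 UMIs at random without replacement, leaving out shallower cells, with 95% exact binomial intervals. The limit allowed by a count of 0 is 3 counts. Intervals and limits cover counting error only. The mice are separate animals. Genes besides the members were named by rule: the 10 most like the members, the 3 highest of each list in NB-like cells, and list genes called in a test, up to 5 a direction. Genes that define the clusters, and the lineage genes, were named after their values were seen. Gene positions are from GENCODE vM21. Some genes that the rule names are not reported here.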

Additional observations from a re-analysis of the deposited data

Results flagged for a closer look

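The fold of Nefm in NB-like over OL-like cells lay below 1 in both P43 mice and above 1 in both P70 mice. With 10 CPM added, the fold was 0.877 in mouse 4 and 0.855 in mouse 5, both with no Nefm UMI in NB-like cells, and 4.27 in mouse 6 and 8.53 in mouse 7. The P43 folds are fixed by the count of 0, which allows 48.9 and 65.2 CPM, so no direction was measured at P43, and the difference between ages was not tested.

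The unassigned cells of mouse 7 enter no comparison above. Some members stood there above the level of myeloid cells and at least 4 times that of OL-like cells of the same mouse. These were Stmn2 at 803 CPM, Gap43 at 377 CPM, Stmn3 at 299 CPM, Ina at 175 CPM, Nefm at 35.2 CPM, Dcx at 32.5 CPM, Nefl at 28.9 CPM and Snap25 at 23.5 CPM. The share of all features that reach the same limits was not computed, so this is no result about the members as a set. Tubb3 at 198 CPM and Syp at 19.8 CPM also had higher values than in myeloid cells (2.59 CPM each), but stood at 203 and 6.78 CPM in OL-like cells of that mouse, and for Syp the counting intervals of unassigned and myeloid cells overlapped. Most of these cells, 150 in number, belonged to a cluster of 1049 cells, in which their Stmn2 stood at 843 CPM. Taken as a whole, that cluster had markers of OL-like cells and a neuroblast marker among its leading genes. Since 870 of its cells were of mouse 4, the OL-like markers of the cluster need not describe the 150 cells of mouse 7.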

How the results depend on the processing

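No paired analysis was possible because the mice of the 2 ages carry different numbers and no label pairs them. Leaving out a mouse from the levels, folds, ratio and members per cell was chosen after seeing the data.

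Without integration the mean level of the 10 genes in NB-like cells was 134 instead of 232 CPM, 2 instead of 6 genes passed 4-fold, and 2.57 instead of 3.20 members were found per cell. Age in NB-like cells could not be fitted then, since P43 mice held 0 and 1 such cells. With 50 CPM added 3 genes passed. Thinning to 1000 UMIs gave 1.67 members per cell and a mean share of 14.3% instead of 31.7%, and no thinning 4.12 and 44.8%. Without thinning the log2 fold of the members with over without a reporter UMI was 0.14 instead of -0.25. Reporter-bearing cells alone gave a synapse ratio of 0.04 instead of 0.24. Over tumor classes alone 2 of the 10 most similar genes were shared. The summed log2 fold in cycling NB-like cells was -0.33 with 3 of 8 genes, -0.30 with 1000 UMIs and -0.33 with a mitochondrial share under 10%, instead of -0.39.

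For age in OL-like cells DESeq2 called 110 genes and no filter 71, and leaving out a mouse 0 to 1, instead of 0. For age in NB-like cells no filter called 559 genes, reporter-bearing cells 68, members among the variable genes 387, a limit of 60000 UMIs 113, a mitochondrial share under 10% 23, and leaving out a mouse 89 to 277, instead of 196. For cycling OL-like cells leaving out a mouse gave 1378 to 1792 instead of 2143.

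Some log2 folds that were not called changed sign: Stmn2 with age in NB-like cells to -0.043 (60000 UMIs), Stmn3 to 0.12 (no filter) and 1.78 (reporter), Tubb3 to 0.22 (no filter), 0.44 (reporter) and 0.11 (members variable), and Syp to 10.60 (reporter). Snap25, which was called, went to 10.77 with reporter-bearing cells, not called, fitted against 0 UMIs at P43. Leaving out a mouse moved Stmn3 between -0.47 and 0.22, Tubb3 between -0.32 and 0.32, and Tubb3 in cycling OL-like cells between -0.20 and 0.034. The cause of these changes was not tested, apart from fewer cells or genes by construction. The 6 to 506 NB-like cells per mouse limit every value at P43.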
